A study of Mus musculus with 9 samples.

Results

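The deltex family and Notch genes examined here are 9 of the 48795 gene IDs in the count files: the deltex genes Dtx1, Dtx2, Dtx3, Dtx3l and Dtx4, the receptor genes Notch1 and Notch2, the nuclear mediator Rbpj and the target Hes1. They were chosen by name, with the difference of Dtx3 and Dtx1 between mock and tatcre cells already known. Their values in that comparison are therefore given as a description. No p-value is printed for them, and nothing is read from which of them passed a threshold. All 9 passed the low-count filter. The cells were CD23-selected follicular B cells, the main resting B cells of the spleen, from C57BL/6 mice, of an age not stated in the labels, whose Yy1 gene is floxed (yy1 f/f); the mock libraries carry the floxed alleles too. By the titles and series text TAT-CRE, a Cre recombinase that enters cells, was given to the tatcre cells and not to the mock cells. The sample text lists it for the mock cells too. LPS plus IL-4 were added to the culture of both. RNA-seq gave 3 mock and 3 tatcre libraries. The series text gives 72 hours with 10% serum and the sample text 48 hours with 20% serum. The series text describes 3 spleens, each divided over the treatments, and the labels do not tie a library to a mouse. A p-value here therefore reflects library spread, which may be technical.

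Notch receptors are cut after a ligand on a neighbouring cell binds them, first by ADAM10 and then by gamma-secretase. The freed intracellular domain enters the nucleus, joins RBPJ and a Mastermind-like coactivator, and switches on genes such as Hes1 and Dtx1. In the spleen, Notch2 signalling is known for directing B cells to the marginal zone, and follicular B cells depend on it less. Deltex proteins are RING-type ubiquitin ligases with a shared C-terminal deltex domain. DTX1 is a Notch target that also acts on the pathway, while DTX3L works with PARP9 in the DNA damage and interferon responses.

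The libraries held 22729187 to 28230727 gene counts. Levels are given as CPM, each count relative to the TMM-scaled total of its library. Yy1 stood at 100.3 to 112 CPM in mock and 0.984 to 2.0 CPM in tatcre libraries. Mock 3 had 20420 genes with at least 1 count, where the other libraries had 21875 to 23197, and held the lowest mock value for 7 of the 9 members; tatcre 2 held the lowest tatcre value for 6 of 9. Without mock 3 the log2 fold change was -3.68 for Dtx3, -0.70 for Dtx1 and -0.37 for Rbpj, each somewhat larger than with it. The B cell markers (6 of 6 with counts) summed to 3885 to 4172 CPM in mock and 3362 to 3431 CPM in tatcre libraries, with 3 of the 6 called lower, Pax5 and Cd22 among them. Ms4a1, Cd79a and Cd79b were not called, and Cd79b had the higher mean in tatcre libraries (371 CPM in mock, 423 CPM in tatcre). Of the 7 T cell markers, Thy1 made up nearly the whole sum (190 to 240 CPM in mock, 104 to 116 CPM in tatcre), and Cd3e, Cd3d, Cd3g, Cd4 and Cd8a each stayed at or under 12 counts in every library. Cd3e had 3, 4 and 0 counts in mock and 8, 12 and 8 counts in tatcre libraries. Of 6 myeloid markers Fcgr1 was at 0 throughout and Lyz2 had 1 count in all; the list summed to 22.5 to 28.1 CPM in mock and 12.6 to 15.8 CPM in tatcre libraries, nearly all of it Cd68. Csf1r, of the same list, had 10, 8 and 1 counts in mock and 31, 31 and 9 counts in tatcre libraries. NK, erythroid and platelet lists stayed at or under 1.12 CPM in sum. The plasma cell list summed to 580 to 608 CPM in mock and 430 to 460 CPM in tatcre libraries, most of it Irf4. Jchain and Irf4 were called lower, while Sdc1 (2.84 and 3.02 CPM) and Prdm1 (25.5 and 24.1 CPM) were not called. The sums of the B cell, T cell, myeloid and plasma cell lists were thus all lower in tatcre libraries without overlap, as were Dtx3, Dtx1 and Rbpj, although single markers such as Cd3e and Csf1r had higher counts. Their part in these results was not tested.

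Dtx3, a short deltex ligase without the WWE domains of Dtx1, Dtx2 and Dtx4, showed the widest difference of the 9. Dtx3 (ENSMUSG00000040415, GRCm38 chromosome 10, 127190373 to 127196498) had 867, 767 and 631 counts in mock libraries 1 to 3 and 62, 46 and 69 counts in tatcre libraries 1 to 3. In CPM these were 32.8, 28.4 and 26.9 in mock and 2.54, 1.92 and 2.77 in tatcre libraries. The lowest mock library thus lay far above the highest tatcre library, and the tatcre mean of Dtx3 was 8.21% of its mock mean, beside 1.4% for Yy1. Dtx3 averaged 29.4 ± 3.05 CPM in the mock group and 2.41 ± 0.438 CPM in the tatcre group (SD, n = 3 each), a fitted log2 fold change of -3.60 (SE 0.16), and 23 of the 15546 tested genes had a lower one. In bulk RNA, fewer cells that express a gene and less RNA per cell cannot be told apart. By the titles and series text all tatcre libraries and no mock library met the recombinase, so its exposure and the loss of Yy1 cannot be told apart either.

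Dtx1, the deltex gene induced by Notch, was also lower in tatcre cells, by far less. Dtx1 (ENSMUSG00000029603, chromosome 5, 120680203 to 120711867) had 463, 420 and 321 counts in mock and 287, 201 and 264 counts in tatcre libraries, or 17.5, 15.6 and 13.7 CPM against 11.8, 8.39 and 10.6 CPM. Every tatcre library lay below every mock library, but the gap between the lowest mock and the highest tatcre library was narrow. The means were 15.6 ± 1.91 and 10.2 ± 1.71 CPM (SD, n = 3 each), a log2 fold change of -0.60 (SE 0.15). It ran from -0.73 to -0.48 when single libraries were left out.

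The other 3 deltex genes did not separate the groups. Dtx3l (ENSMUSG00000049502, chromosome 16, 35926515 to 35939027) had 152, 132 and 156 CPM in mock and 136, 133 and 136 CPM in tatcre libraries, a log2 fold change of -0.12 (SE 0.08). Its tatcre libraries were nearly equal, with an SD of 1.38% of their mean, and sat inside the mock range. Dtx2 (ENSMUSG00000004947, chromosome 5, 135994800 to 136032881) had 10.2, 11.3 and 11.3 CPM in mock and 10.8, 10.1 and 11.99 CPM in tatcre libraries (log2 fold change 0.01, SE 0.12). Dtx4 (ENSMUSG00000039982, chromosome 19, 12466329 to 12502179) was sparse, with 43, 60 and 20 counts in mock and 46, 59 and 29 counts in tatcre libraries. Its SD was 43.9% of the mean in mock cells and its log2 fold change of 0.22 had an SE of 0.43 and ran from -0.08 to 0.55 on leaving out single libraries.

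Both receptor genes overlapped between the groups. Notch2 (ENSMUSG00000027878, chromosome 3, 98013538 to 98150367), the receptor of the marginal zone pathway, had 77.0, 84.7 and 75.4 CPM in mock and 67.3, 69.7 and 81.8 CPM in tatcre libraries, a log2 fold change of -0.12 (SE 0.10). Tatcre 1 and 2 lay below all mock libraries and tatcre 3 among them. Notch1 (ENSMUSG00000026923, chromosome 2, 26457902 to 26503822) had 35.7, 40.3 and 34.5 CPM in mock and 35.3, 30.8 and 41.4 CPM in tatcre libraries (log2 fold change -0.04, SE 0.12), and the highest and the lowest value were both tatcre libraries. Its sign changed with the scaling and with single libraries: it was 0.06 with library size alone, 0.02 without mock 2, 0.06 without tatcre 2 and -0.16 without tatcre 3.

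Rbpj, the DNA-binding factor that all Notch receptors share, was modestly lower. Rbpj (ENSMUSG00000039191, chromosome 5, 53555779 to 53657445) had 74.0, 79.4 and 71.3 CPM in mock and 57.7, 57.3 and 64.4 CPM in tatcre libraries, without overlap. The means were 74.9 ± 4.13 and 59.8 ± 4.0 CPM (SD, n = 3 each), a log2 fold change of -0.33 (SE 0.09). Hes1 (ENSMUSG00000022528, chromosome 16, 30065357 to 30067796), a repressor and classic Notch target, was near the detection floor with 12, 20 and 8 counts in mock and 18, 15 and 11 counts in tatcre libraries. Its log2 fold change of 0.22 had an SE of 0.54, so no difference was read from it.

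**Figure D1:**
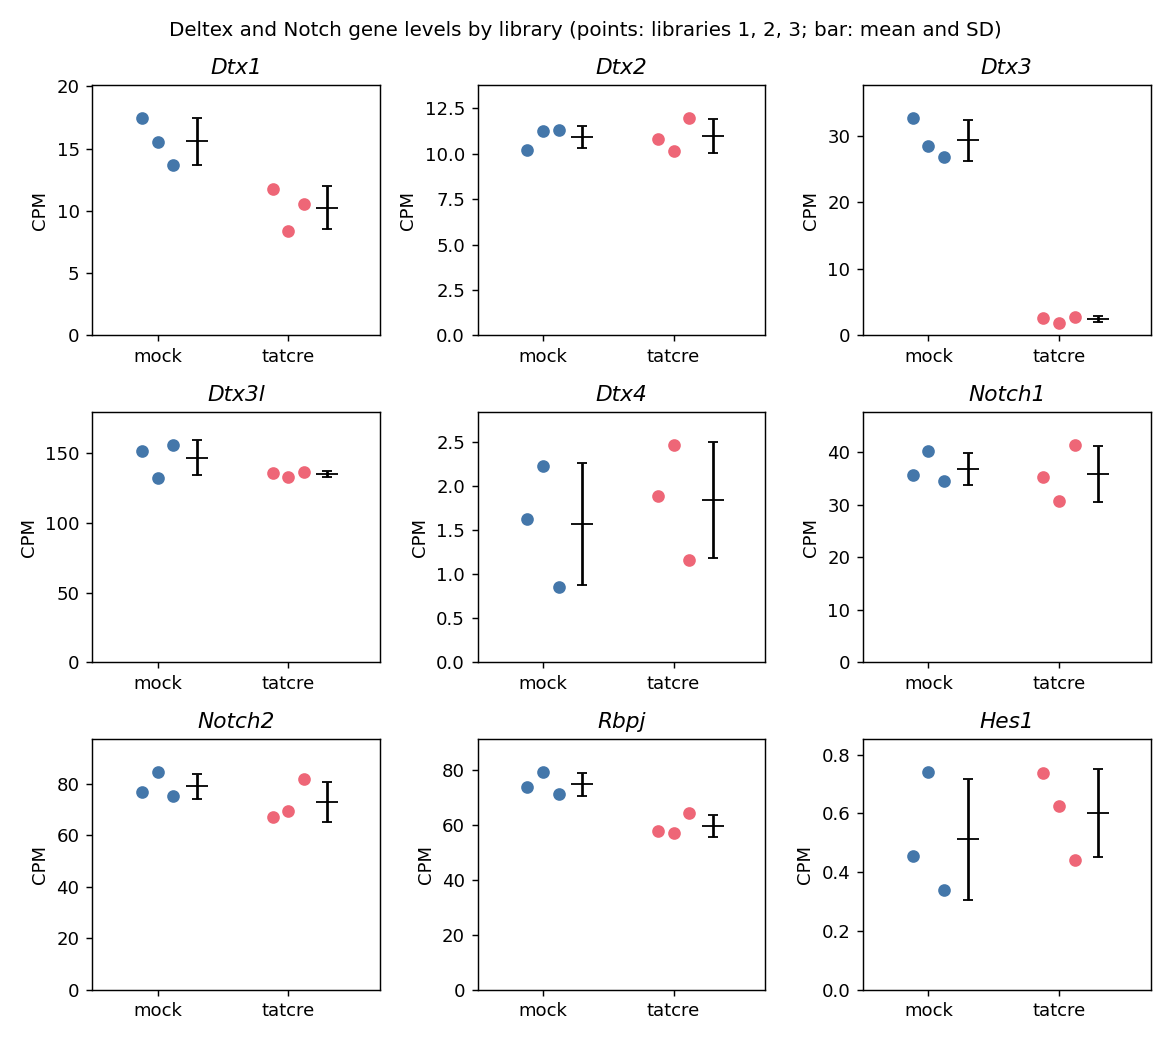
Levels of the 9 genes in each library (y axis, CPM from 0; points, libraries 1, 2 and 3 of each group from left to right; bar, mean and SD). Dtx3, Dtx1 and Rbpj are the panels in which the 3 tatcre libraries lie below the 3 mock libraries.

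As a set, the groups did not overlap for 3 of the 9 genes, all lower in tatcre cells, where 23.3% of all tested genes were lower without overlap, 20.6% higher and 44% either way. The same 3 were past the edgeR threshold (quasi-likelihood test, Benjamini-Hochberg adjusted p under 0.05), where 16.3% of tested genes were called lower, 10.8% higher and 27.1% either way. Because this comparison chose the genes, nothing is read from these counts. Rbpj was no longer past the threshold without mock 2, without tatcre 1, with library size alone or with the replicate number as a block. Apart from Dtx3 and Dtx1, the 7 other genes had log2 fold changes from -0.33 to 0.22 with a median of -0.04, and the median of all tested genes was 0.02.

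**Figure D2:**
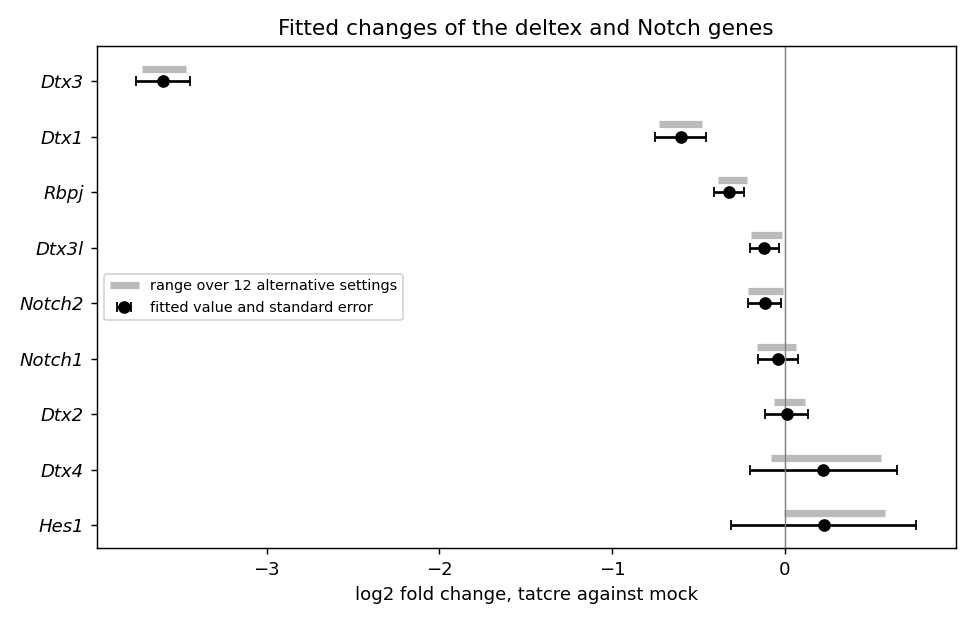
Fitted log2 fold change of tatcre against mock (x axis) for each of the 9 genes (black, value and standard error), with the range over 12 alternative settings in grey. Dtx3 stands at -3.60, Dtx1 at -0.60 and Rbpj at -0.33, and the ranges of the other 6 reach or come close to 0.

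Promoter windows from RefSeq on GRCm38 (250 bases before to 50 after a start site) matched 6 of the 9 genes, in 7 windows: Dtx1, Dtx2, Dtx3l, Notch1, Notch2 and, with 2 overlapping windows, Rbpj. The windows of Dtx1 and Rbpj are shown up to the base before the start site, with matches to the RBPJ core in capitals. Among these 6 they are the genes whose tatcre libraries all lay below the mock libraries. Both genes have window start sites inside the spans given above. The Dtx1 span ends at 120711867, within its window. The Rbpj windows begin at 53590096 and 53590236, downstream of the span start at 53555779, so the sequence at that span start was not searched. All 7 windows were searched on both strands for the YY1 letters AAGATGGC, the looser AANATGGC and the core ATGGC. Each of these contains or is contained in the others. The RBPJ core TGGGAA was searched in the same way.
Dtx1 (GRCm38, chr5:120711670-120711919, minus strand): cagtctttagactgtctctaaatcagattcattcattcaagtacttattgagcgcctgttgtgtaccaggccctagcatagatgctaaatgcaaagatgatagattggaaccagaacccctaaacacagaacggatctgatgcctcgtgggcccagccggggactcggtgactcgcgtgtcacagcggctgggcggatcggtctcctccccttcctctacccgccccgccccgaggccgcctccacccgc
Rbpj (GRCm38, chr5:53590096-53590345, plus strand): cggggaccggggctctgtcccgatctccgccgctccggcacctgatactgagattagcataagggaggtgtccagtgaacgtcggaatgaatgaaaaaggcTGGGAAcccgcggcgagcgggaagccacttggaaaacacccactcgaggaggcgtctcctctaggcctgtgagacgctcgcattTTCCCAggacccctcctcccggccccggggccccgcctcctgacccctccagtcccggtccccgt
The Dtx1 window held none of these letters. The first Rbpj window held TGGGAA in both orientations, at positions -149 and -65 from the start site, and the second window repeats the latter. Elsewhere TGGGAA occurred in the Dtx2 window, on the opposite strand at -23, and the YY1 core occurred only in the Dtx3l window, at -27 and -14. These sites are printed with 8 flanking bases on each side and the match in capitals.
Dtx2 (GRCm38, chr5:135994769-135994790, plus strand): aactacatTTCCCAgaaggcac
Dtx3l, first (GRCm38, chr16:35939042-35939062, minus strand): accgggtgATGGCtctgagag
Dtx3l, second (GRCm38, chr16:35939029-35939049, minus strand): tctgagagATGGCagagcaag
Of all 32851 windows of this length in the table, 40.5% held ATGGC, 6.05% AANATGGC, 2.75% AAGATGGC and 25.6% TGGGAA, so the short matches are common. A match is a description of letters and not of binding.

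The genes next to the members were examined to see whether the differences were shared along the chromosome. Next to Dtx3 they were not of the same size. Pip4k2c, a lipid kinase gene 569 bp away, fell 1.29-fold, from 24.6 ± 0.978 to 19.1 ± 0.34 CPM (SD, n = 3 each; edgeR adjusted p = 0.014), a call lost with library size alone (edgeR adjusted p = 0.059). B4galnt1, a ganglioside synthesis gene 18033 bp away on the other side, stood at 138 ± 5.28 and 154 ± 23.0 CPM and was not called (edgeR adjusted p = 0.29; 0.037 without tatcre 2). The long noncoding RNA F420014N23Rik, which overlaps the higher-coordinate end of the Dtx3 span, had 6 to 14 counts in mock and 12 to 27 counts in tatcre libraries and was not called. Arhgef25, between Dtx3 and B4galnt1, never exceeded 13 counts and went untested. No source used here gives the strand setting of the counting, so reads in the stretch shared with F420014N23Rik cannot be assigned with certainty.

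**Figure D3:**
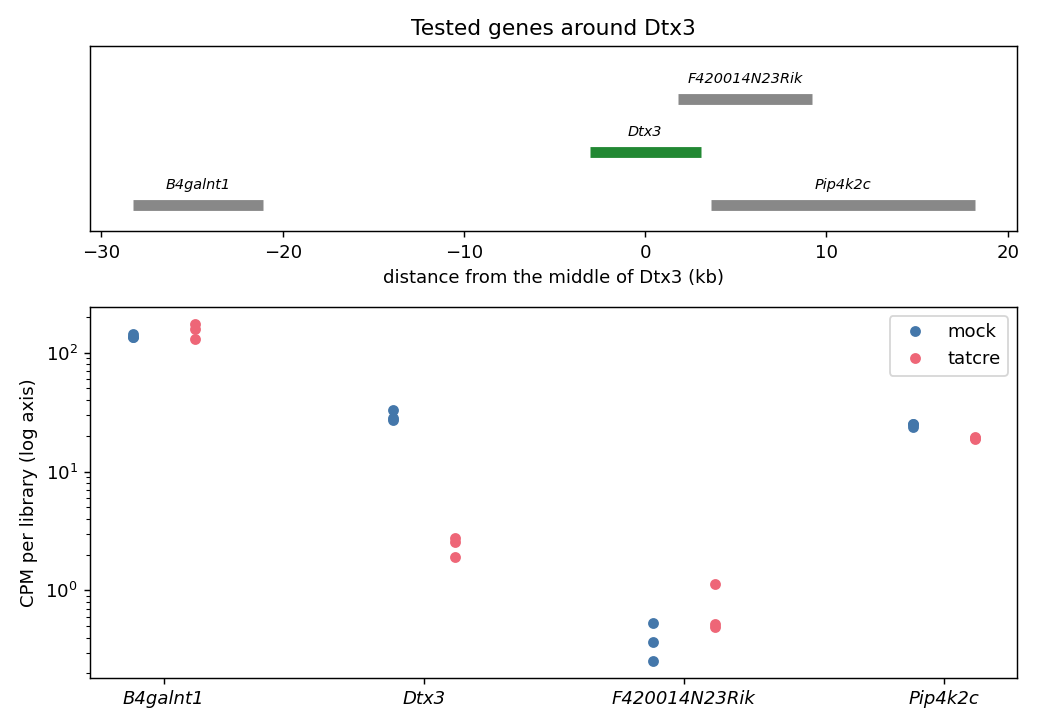
Tested genes around Dtx3. The upper panel gives the gene spans as distance from the middle of Dtx3 in kb, and the lower panel the CPM of each library on a log axis (blue, mock; red, tatcre). Dtx3 drops from 26.9 to 32.8 CPM to 1.92 to 2.77 CPM, while Pip4k2c beside it lies at 23.5 to 25.3 CPM and 18.7 to 19.4 CPM.

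Of the 20 tested genes that overlap a member or lie nearest to one on either side, 6 were called lower (30%), 2 higher (10%) and 12 not, beside 16.3% lower and 10.8% higher over all tested genes. Those lower included the nearest tested gene on each side of Notch1, a gene that itself did not differ. Egfl7, which encodes a secreted endothelial factor, and which lies 77261 bp away, fell 2.89-fold (6.89 ± 1.63 to 2.38 ± 0.469 CPM, edgeR adjusted p = 0.00078), and Sec16a, an organiser of endoplasmic reticulum exit sites, fell 1.54-fold (105 ± 5.36 to 68.5 ± 5.43 CPM, edgeR adjusted p = 0.00045). Gm9771, a pseudogene beside Notch2, fell 1.88-fold and Mpeg1, a pore-forming protein gene 1044 bp from Dtx4, fell 1.36-fold. Beside Dtx1, Rasal1 (3.52 to 3.74 CPM) and Oas2 (4.94 to 7.14 CPM) were not called (edgeR adjusted p = 0.83 and 0.08), though Oas2 was called higher without tatcre 2 (edgeR adjusted p = 0.029) and with library size alone (edgeR adjusted p = 0.045). Those called higher were Kpna1 near Dtx3l and, at a low level, Ssc4d near Dtx2. Both were lost with the replicate block (edgeR adjusted p = 0.051 and 0.072). Over the 12 alternatives the call of Kpna1 held in 9 and that of Ssc4d in only 5. The number of higher neighbours was 0 without mock 1 or tatcre 1, 1 without mock 3 or tatcre 3, and 5 with library size alone. The genes flanking Rbpj and Hes1 (Smim20, Tbc1d19, Opa1 and Atp13a3) were not called. Over the 12 alternatives Opa1 stayed uncalled in 10 and Tbc1d19 in 11. All tatcre libraries of Opa1 (121.5 to 128.4 CPM) lay above its mock libraries (110.0 to 115.8 CPM).

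The span of Dtx3l overlaps that of Parp9, which encodes its binding partner. Parp9 fell 1.22-fold, from 190 ± 10.3 to 155 ± 7.89 CPM (SD, n = 3 each; edgeR adjusted p = 0.019). The call was lost without mock 3 (edgeR adjusted p = 0.057), without tatcre 1 (0.058) and with library size alone (0.072). Parp14 was at 251 ± 21.6 and 216 ± 6.75 CPM and not called (edgeR adjusted p = 0.073). It stayed uncalled in 11 of 12 alternatives.

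The other genes of the pathway, taken from lists by role with the 9 genes left out, were tested in the same fit. Of 84 genes 70 were tested; 23 fell, 7 rose and 40 were not called. That is 32.9% lower and 10% higher, beside 16.3% and 10.8% of all tested genes, and the median log2 fold change was -0.08. The split depended on the scaling: 20 fell and 12 rose with upper-quartile factors, and 16 fell and 15 rose with library size alone. Without mock 2 only 3 rises were called. Over all genes 60.2% of calls were falls, and 48.5% and 42.0% under the same 2 scalings.

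Ligand and remaining receptor genes were scarce. Of 5 ligand genes, Jag1 and Jag2 could be tested and neither was called. Jag1 had 58, 36 and 5 counts in mock and 58, 89 and 54 counts in tatcre libraries, with mock 3 far below the rest (edgeR adjusted p = 0.17). Dll1, Dll3 and Dll4 had up to 9 counts per library, and Notch3 and Notch4 up to 13, so none of these was tested.

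Genes for receptor cleavage went both ways. Of 9 tested, 1 fell, 1 rose and 7 were not called. Adam10, the first protease to cut the bound receptor, rose 1.45-fold, with 165, 168 and 187 CPM in mock and 249, 253 and 254 CPM in tatcre libraries (edgeR adjusted p = 0.00051). All its tatcre libraries were above all mock libraries and close to each other. Ncstn, the gamma-secretase subunit that docks the substrate, fell 1.34-fold, from 58.2 ± 2.35 to 43.4 ± 4.76 CPM (SD, n = 3 each; edgeR adjusted p = 0.0077), while Psen2, a catalytic subunit, was not called (edgeR adjusted p = 0.66).

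Of the 8 enzymes that add sugars to Notch, 4 fell, 1 rose and 3 were not called. Poglut1, which adds O-glucose, fell 1.45-fold (42.9 ± 2.76 to 29.7 ± 2.52 CPM, edgeR adjusted p = 0.0023), and Xxylt1, which extends it with xylose, fell 1.55-fold (16.5 ± 1.55 to 10.7 ± 0.316 CPM, edgeR adjusted p = 0.0025). Mfng, a Fringe enzyme, fell 1.51-fold (12.3 ± 1.77 to 8.14 ± 1.03 CPM, edgeR adjusted p = 0.013), a call lost without mock 2 (edgeR adjusted p = 0.06). The remaining fall, of the Fringe enzyme Lfng, and the rise, of the xylosyltransferase gene Gxylt1, were each lost in 7 of 12 alternatives, Gxylt1 on leaving out any 1 mock library (edgeR adjusted p = 0.088, 0.102 and 0.077) or tatcre 2 or 3 (0.092 and 0.076), and Lfng without mock 1 or 2 (0.055 and 0.112) or tatcre 2 or 3 (0.072 and 0.052). Pofut1, which adds the O-fucose that Fringe enzymes extend, stood at 48.0 ± 1.23 and 49.4 ± 0.147 CPM and was not called (edgeR adjusted p = 0.71).

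Among 12 tested genes of ubiquitination and trafficking, 4 fell, 2 rose and 6 were not called. Neurl3, a RING ligase of the Neuralized family, fell 4.68-fold, with 34.0, 26.6 and 28.1 CPM in mock and 6.97, 5.85 and 6.13 CPM in tatcre libraries (edgeR adjusted p = 2e-06). Itch, a HECT ligase known to target Notch, fell 1.54-fold (123 ± 2.18 to 79.5 ± 2.75 CPM, edgeR adjusted p = 0.00016), and Fbxw7, which marks the Notch intracellular domain for decay, fell 1.41-fold (220 ± 10.0 to 156 ± 1.85 CPM, edgeR adjusted p = 0.00065). The rises were of Aak1, a kinase of endocytosis, and of Mib1, a ligase for Notch ligands. The call of Mib1 was lost without mock 2 (edgeR adjusted p = 0.073), without mock 3 (0.056) and without tatcre 1 (0.054). Neurl1a was at 0 counts throughout; a limit of 3 counts is at most 0.128 CPM here and covers counting error only.

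Coactivators and corepressors that meet RBPJ also went both ways. Of 8 coactivator genes 3 fell, 1 rose and 4 were not called. Kat2b, an acetyltransferase, rose 2.05-fold, with 17.1, 14.4 and 15.9 CPM in mock and 30.9, 33.7 and 32.6 CPM in tatcre libraries (edgeR adjusted p = 4.7e-05). Its relative Kat2a fell 1.27-fold (48.1 ± 2.9 to 38.0 ± 2.04 CPM, edgeR adjusted p = 0.015), a call lost without mock 2 (edgeR adjusted p = 0.055), without tatcre 1 (0.051) and with library size alone (0.052). Maml2, a Mastermind-like coactivator, fell 1.53-fold (12.1 ± 1.08 to 7.94 ± 1.16 CPM, edgeR adjusted p = 0.0094). The third fall, of Maml1, was lost in 6 of 12 alternatives, among them without mock 1 (edgeR adjusted p = 0.069), without tatcre 1 (0.064) and without tatcre 3 (0.064), so that 1 of the 3 falls was left without tatcre 1. Of 17 tested corepressor genes 5 fell, 2 rose and 10 were not called. Spen, a repressor that binds RBPJ, fell 1.78-fold (122 ± 10.3 to 68.6 ± 14.1 CPM, edgeR adjusted p = 0.00098), Tle5 1.72-fold (135 ± 9.15 to 78.6 ± 12.8 CPM, edgeR adjusted p = 0.00071) and Tle3 1.38-fold (edgeR adjusted p = 0.0038). Both rises, of Tle1 and L3mbtl3, were lost without mock 2 (edgeR adjusted p = 0.094 and 0.059), and that of Tle1 also without mock 1, tatcre 1 or tatcre 3 (0.1, 0.128 and 0.102). The fall of Kdm1a was lost without mock 2 (edgeR adjusted p = 0.055), without tatcre 1 (0.054) and with library size alone (0.065).

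Of the 12 genes in the list of Notch targets, not all of them established as such in B cells, 7 were tested, 3 fell and 4 were not called. Cr2, which encodes the complement receptor CD21, fell 3.24-fold, with 14.5, 11.7 and 15.8 CPM in mock and 3.89, 6.31 and 2.77 CPM in tatcre libraries (edgeR adjusted p = 0.00062). Myc fell 1.69-fold (304 ± 31.9 to 179 ± 19.4 CPM, edgeR adjusted p = 0.00037), and Il2ra, the high-affinity interleukin 2 receptor chain, fell 1.22-fold (edgeR adjusted p = 0.013), a call lost with library size alone (edgeR adjusted p = 0.075). Both of these also respond to other signals in activated B cells. Nrarp, a feedback inhibitor induced by Notch, had 47, 62 and 36 counts in mock and 80, 56 and 39 counts in tatcre libraries and was not called (edgeR adjusted p = 0.47). Hes5, Hey1, Hey2, Heyl and Ptcra reached no more than 15 counts and were not tested. In the list of 5 marginal zone B cell genes, Cr2 and Mzb1 (155 ± 11.6 to 107 ± 12.7 CPM, edgeR adjusted p = 0.0027) fell, and Cd1d1, S1pr3 and Cd9 were not called (edgeR adjusted p from 0.18 to 0.68).

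**Figure D4:**
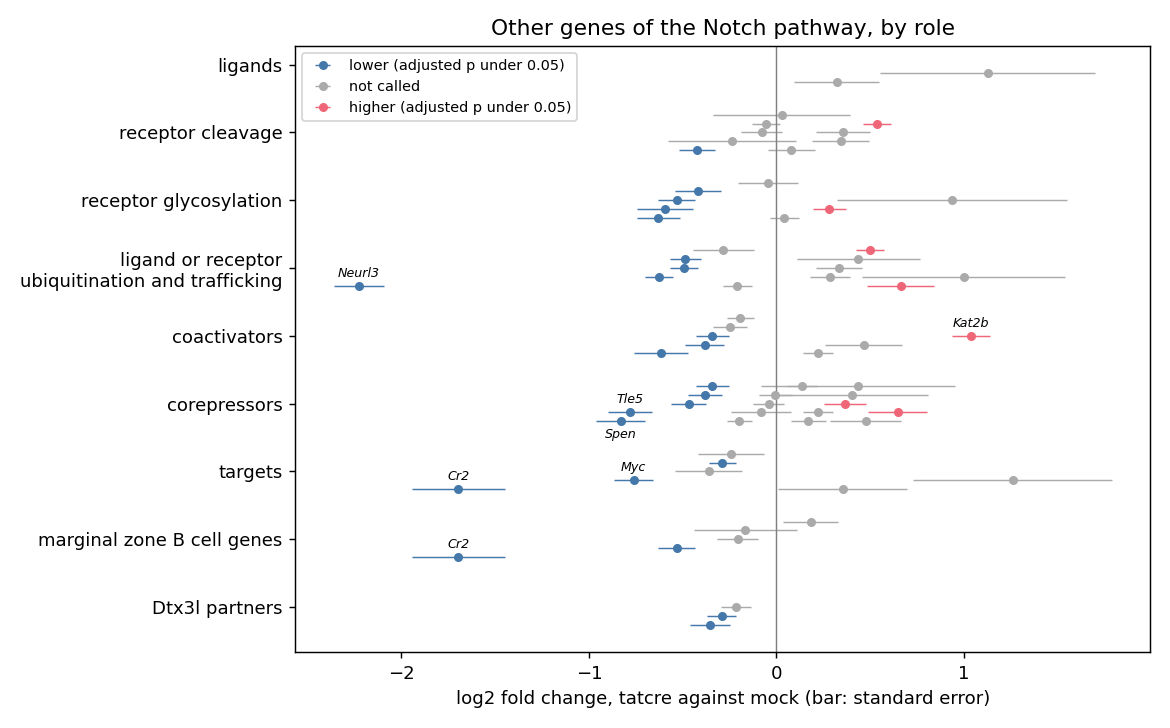
Log2 fold change of tatcre against mock (x axis; bar, standard error) for the tested genes of the wider Notch lists, by role (rows; vertical offsets within a row only separate points, and Cr2 stands in 2 lists). Blue marks genes called lower, red genes called higher and grey genes not called; Neurl3 at -2.23 and Cr2 at -1.70 lie farthest to the left, and Kat2b at 1.04 is the highest of those called.

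The genes whose profile over the 6 libraries lay nearest to that of Dtx3 were sought among 10450 genes of mean log2 CPM of at least 2, by the root mean square distance of log2 CPM centred on each gene's mock mean. They were Ighg2b (distance 0.10), Ehd3 (0.20), Pepd (0.24), Nipsnap1 (0.24) and Hsd17b10 (0.26). Their fitted log2 fold changes were, in this order, -3.50, -4.22, -3.72, -4.24 and -3.36, beside -3.60 for Dtx3. The tatcre means of Ehd3, Pepd and Nipsnap1 (0.79, 0.73 and 0.71 CPM) were close to the pseudocount of 0.5. Their distances therefore depend on it. Ighg2b, an immunoglobulin constant gene, stood at 55.8 to 58.8 CPM in mock and 4.01 to 6.17 CPM in tatcre libraries, and Pepd, a dipeptidase gene, at 9.33 to 10.1 and 0.543 to 0.842 CPM. For Dtx1 they were Mettl17 (distance 0.02), Gpn2 (0.04), S100a11 (0.06), Ninj1 (0.06) and Adgrl1 (0.06). Mettl17, a mitochondrial ribosome assembly factor, stood at 8.99 to 11.6 CPM in mock and 5.68 to 7.75 CPM in tatcre libraries. These distances describe likeness over 6 libraries in 2 groups.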

How the data were processed

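RNA-seq of 3 mock and 3 tatcre libraries of splenic follicular B cells was used; the YY1 ChIP-seq peak lists were not used here, because the genome build of their coordinates was not settled. The authors deposited raw counts per Ensembl gene, with no normalization per the file headers and values. The submitters' processing notes name build mm10 and HTSeq, TopHat2, Trimmomatic and SAMtools. Tool versions, annotation, strand setting and multi-mapping rule: not given in the sources used here. Of 48795 IDs 48349 matched a symbol. Groups follow titles and series text, although the sample text lists TAT-CRE for mock too.

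Genes were kept with filterByExpr (minimum count 10, minimum total 15), which left 15546, scaled by TMM and tested by quasi-likelihood in edgeR 4.0.16 under R 4.3.3, Benjamini-Hochberg adjusted over all tested genes at 0.05. An adjusted p in the text comes from that test. The test was checked on simulated data with independent libraries and the same dispersion for all genes. That check had no uneven libraries and no pairing, so it cannot speak to either. All replicate pairs differed by more than sampling noise (smallest chi-square per degree of freedom 8.1). The intended order of the genes by level per length was not made, since transcript lengths were not used here. Gene spans came from the RefSeq table (GRCm38, that is, mm10), which held 91.3% of tested genes.

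The 9 genes, the lists by role, the markers and the tests were chosen with earlier results of these data known. Named besides the 9 were, of each list, up to 3 called genes with the smallest adjusted p, flanking genes, and the 5 nearest profiles of Dtx3 and Dtx1 (pseudocount 0.5); others were named after their values were seen. Alternatives were RLE, upper-quartile and no scaling factors, no filter, DESeq2 1.42.0, a replicate block and leaving out each library. Some results are not reported here.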

Additional observations from a re-analysis of the deposited data

How the results depend on the processing

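Over 12 alternatives the log2 fold change ran from -3.72 to -3.46 for Dtx3, -0.73 to -0.48 for Dtx1 and -0.39 to -0.22 for Rbpj, as a description. Notch1, Dtx2, Dtx4 and Hes1 changed sign in at least 1. Of 108 values of the 9 genes 104 moved by less than 1 SD between replicates; the others were Dtx2 (0.11), Dtx3l (-0.01) and Rbpj (-0.22) with library size alone and Hes1 (0.58) without mock 2. Library size alone moved the median of all genes from 0.02 to 0.13. With it 2614 genes rose in place of 1679, 15 rather than 7 rose in the wider Notch list and 5 rather than 2 among the neighbours; 12 rose in the wider list with upper-quartile factors. Without the low-count filter 1 neighbour rose. Leaving out each library gave 998 (without mock 2) to 1681 rises over all genes, with 1002 without tatcre 1, 3 to 9 in the wider list and 0 to 3 among neighbours. The cause was not tested. Of 588 values of single genes outside the 9, 525 kept their side of the threshold, 56 lost a call and 7 gained one. Among those that kept their side, Fam111a, Rasal1, Sec22b and Atp13a3, called in no setting, changed sign in at least 1.

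Whether the replicate numbers pair the libraries was not settled. Same-numbered libraries had correlations of deviations from the group mean of 0.08, -0.12 and 0.16, and not every library correlated best with its own number. With so few libraries per group, these correlations cannot decide it. With the replicate block 2 of the 9 genes were called lower, not 3. Nothing is read from this, because the comparison of tatcre with mock chose the genes. In the same setting 20 of the wider list fell and 7 rose, and 0 neighbours rose and 6 fell. Over all genes 2108 fell and 1313 rose. The order by level per length was not run. Hes1 (8 to 20 counts) and Dtx4 (20 to 60 counts) had the fewest counts of the 9; depth and library spread were not separated there.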
